A study of Mus musculus with 6 samples.

Results

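The genes described here are 10 members of the Wnt-driven program of the hepatocytes around the central vein and of its regulators, in liver of pregnant mice on a high-fructose diet (HFrD). They were taken by symbol from the 56691 genes of the deposited table, without the P450 genes of the same zone: the ligands *Wnt2* and *Rspo3*, the receptor *Lgr5*, the feedback genes *Rnf43* and *Axin2*, the transcription factor *Tbx3*, and the transport and enzyme genes *Glul*, *Oat*, *Slc1a2* and *Rhbg*. All 10 had reads in each library, and 8 of the 10 reached the minimum level for the test, a mean FPKM (fragments scaled by exon length and by the reads counted in the library) of 1 over the 6 libraries. *Rspo3* and *Lgr5* did not.

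KPF was the group of h*Chrebp* KO dams (*Chrebp* flox/flox with 1 copy of Alb-Cre, 3 libraries, replicates 1 to 3), and WPF was the group of *Chrebp* flox/flox dams without Cre (3 libraries, replicates 2 to 4), which the labels call wild type. Both groups carried the floxed alleles, were mated with *Chrebp* flox/flox males and received HFrD from mating until late gestation. Alb-Cre acts in hepatocytes, so that the endothelial, stellate and Kupffer cells of a KPF liver keep the gene. A chow group was not analysed here, the age of the dams is not given in the sources used here, and p-values measure the spread between these 6 livers.

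Liver zonation is the division of labor along the axis from the portal tract to the central vein. Endothelial cells of the central vein and of the nearby sinusoids secrete Wnt ligands and R-spondin, which stabilize β-catenin in the neighboring hepatocytes, and β-catenin with a factor of the TCF/LEF family then switches on the pericentral genes. Pericentral hepatocytes are known for glutamine synthesis, glutamate and ammonium uptake, and bile acid and drug metabolism, while gluconeogenesis and urea synthesis lie on the portal side.

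The libraries held between 10694496 and 14496630 counted reads, each KPF library fewer than each WPF library, and the 10 most abundant genes took between 31.78% and 46.79% of them. *Mlxipl*, the gene of ChREBP, stood at 179, 700 and 849 CPM (reads of a gene scaled to a common library size by the TMM method) in the KPF livers (replicates 1, 2 and 3), while the WPF livers (replicates 2, 3 and 4) held 961, 1260 and 879 CPM. Each KPF liver was below each WPF liver, with KPF replicate 3 close to WPF replicate 4. For *Mlxipl* the log2 difference was -0.84 (SE 0.53, adjusted p = 0.584 by edgeR, Benjamini-Hochberg), and as Cre removes exon 2 alone, counts over the whole gene are a weak check of the labels. Hepatocyte markers held 88800 to 115000 CPM in KPF and 113000 to 187000 CPM in WPF, summed over 9 of the 10 genes listed, and *Alb* was the most abundant of them.

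The start sites of the genes were looked at for the sequence that TCF/LEF factors bind, since that is the step that joins β-catenin to its targets. RefSeq windows on GRCm38.p6 existed for 6 of the 10 genes (7 windows, as *Rnf43* has a pair). The TCF/LEF word, taken as CTTTG and then a pair of bases that are each A or T, was searched on both strands of the 250 bases before the start. It was present in 1 of the 7 windows, against 14.8% of all 32851 windows of that length, namely as ATCAAAG (the word read from the opposite strand), 207 bases before the start of *Slc1a2*. The E-box CACGTG was in 0 of the 7 windows and in 6.02% of all windows. A match is a description of letters and does not show binding, and β-catenin can act from enhancers outside these windows. The stretches of 4 genes are printed here, 5′ to 3′ along the gene and without bases that GENCODE M21 annotates as exon. *Axin2* had the largest difference between the groups among the 10, and *Wnt2* and *Oat* the next largest among the tested members. In *Slc1a2*, capitals mark the TCF/LEF word.
Axin2, chr11:108920099-108920348, plus strand: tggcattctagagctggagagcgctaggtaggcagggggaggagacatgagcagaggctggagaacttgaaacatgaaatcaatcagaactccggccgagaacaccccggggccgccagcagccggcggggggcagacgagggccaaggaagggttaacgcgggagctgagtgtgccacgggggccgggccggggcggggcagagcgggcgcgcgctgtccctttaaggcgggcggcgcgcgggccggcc
Wnt2, chr6:18030586-18030695, minus strand: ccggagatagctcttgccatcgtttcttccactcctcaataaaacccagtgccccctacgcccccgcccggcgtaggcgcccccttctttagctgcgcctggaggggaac
Oat, chr7:132576399-132576648, minus strand: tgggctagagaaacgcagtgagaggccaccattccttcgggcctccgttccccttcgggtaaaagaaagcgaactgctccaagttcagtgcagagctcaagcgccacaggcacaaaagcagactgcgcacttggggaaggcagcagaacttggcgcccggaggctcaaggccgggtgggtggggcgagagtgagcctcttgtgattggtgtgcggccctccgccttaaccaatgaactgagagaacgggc
Slc1a2, chr2:102706188-102706355, plus strand: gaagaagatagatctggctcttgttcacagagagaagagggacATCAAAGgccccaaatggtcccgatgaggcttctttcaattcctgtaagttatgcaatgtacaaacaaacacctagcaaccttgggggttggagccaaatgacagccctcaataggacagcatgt

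The stretches of *Axin2* and *Oat* run up to the start site, whereas those of *Slc1a2* and *Wnt2* end where the exon of another transcript begins. *Axin2*, a textbook β-catenin target, did not hold the word in its window, and *Slc1a2* did. A single match in so few windows cannot show whether the word goes with a difference between the groups.

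*Axin2* was the gene of the 10 called different between KPF and WPF, by the looser of 2 rules alone. It codes for a scaffold of the complex that degrades β-catenin, is itself switched on by β-catenin and is widely read as a measure of Wnt activity. *Axin2* (ENSMUSG00000000142, GRCm39 chr11:108811175-108841609, plus strand) stood at 3.81, 7.25 and 5.48 CPM in the KPF livers and at 9.94, 18.4 and 11.6 CPM in the WPF livers, here and throughout in the order of their replicate numbers. The lowest WPF library lay above the highest KPF library. KPF averaged 5.51 ± 1.72 CPM and WPF averaged 13.3 ± 4.49 CPM (SD, n = 3), a fall of 2.41-fold with a log2 difference of -1.27 (SE 0.35, 95% interval -2.08 to -0.46). In edgeR's quasi-likelihood test it had an unadjusted p of 0.00707, which became 0.43 after Benjamini-Hochberg adjustment over the 10866 genes tested. An exact two-sided permutation test gave p = 0.1, the smallest that 3 libraries against 3 can reach. In a whole liver, fewer cells of a type and less RNA per cell cannot be told apart.

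*Axin2* was thus called by the looser of the 2 rules, an unadjusted p under 0.05 with a change of at least 1.5-fold, and not by the adjusted p. Of all genes tested, 3.98% were called lower and 5.83% higher by the looser rule, and by the adjusted p 0 genes were called (0.0%), with 1177 at an unadjusted p under 0.05 by edgeR and 156 at an adjusted p under 0.05 by DESeq2. Among the 8 tested members, 1 was called lower and 0 higher, and a count of 1 in 8 sets the 10 genes as a group apart from no other genes. The 8 differences had a median of -0.10 on the log2 scale, beside 0.02 for all genes, with 3 above 0 and 5 below. Groups without overlap were found in 7.55% of all genes with KPF higher and in 8.15% with KPF lower, and among the 8 members for *Axin2* alone.

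**Figure D1:**
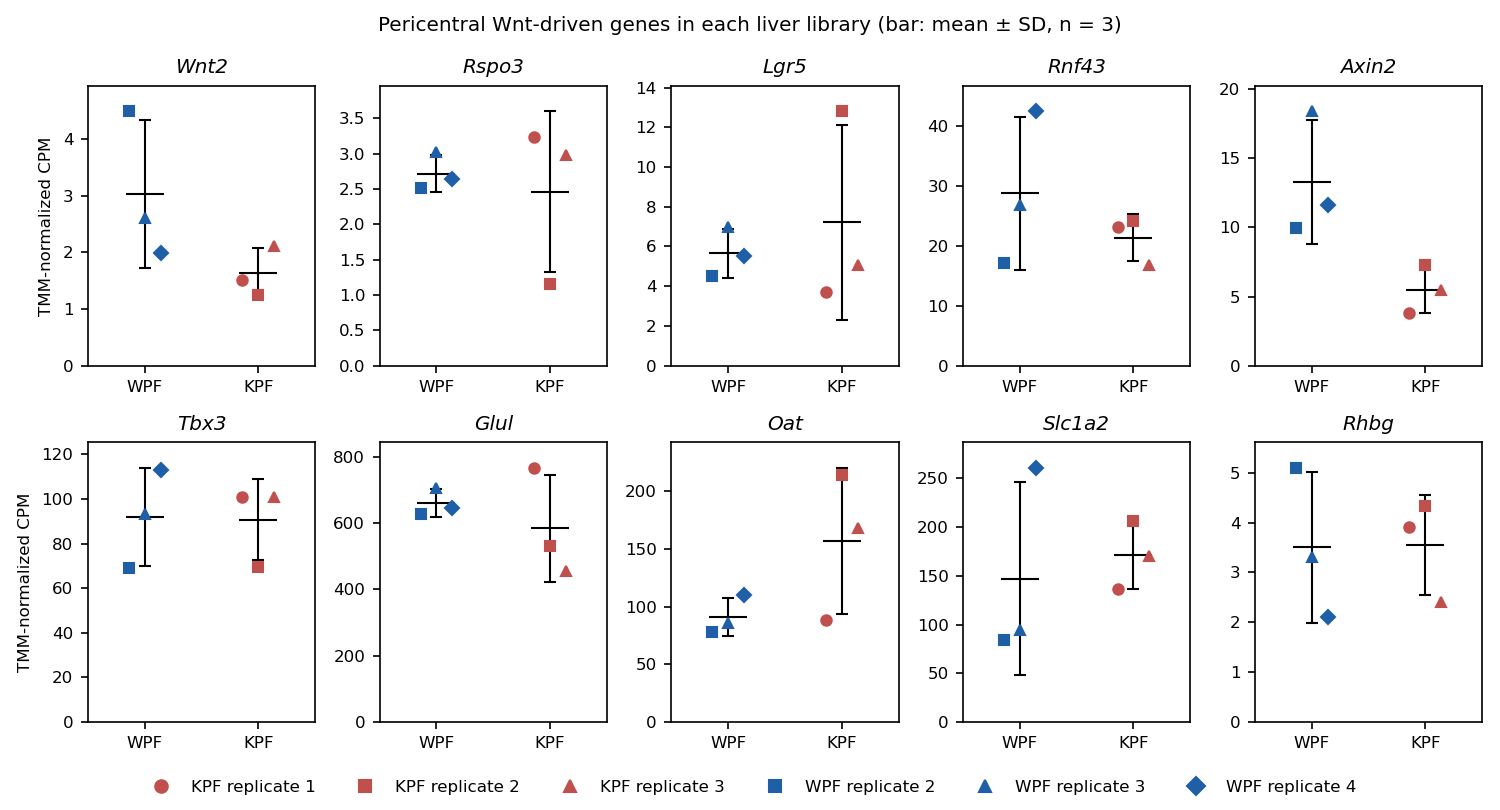
TMM-normalized CPM (vertical axes, each from 0) of the 10 genes in the 3 WPF (blue) and 3 KPF (red) libraries, with the mean ± SD of each group in black. Symbols are replicate numbers, which are not known to pair the groups. The groups are apart for *Axin2*, with KPF between 3.81 and 7.25 CPM and WPF between 9.94 and 18.4 CPM, and overlap for the other 9 genes.

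The reads behind *Axin2* were 40, 82 and 57 in KPF and 115, 262 and 198 in WPF. The gene was also set against other genes of the same library, a comparison chosen after the values were seen that needs no scaling between libraries. Per 100 reads of *Glul*, *Axin2* had 0.497, 1.37 and 1.2 reads in KPF and 1.59, 2.6 and 1.8 in WPF, and the groups did not overlap (exact permutation p = 0.1). Per 100 reads of *Tbx3* it had 3.77, 10.4 and 5.41 in KPF and 14.4, 19.7 and 10.2 in WPF, where KPF replicate 2 lay just above WPF replicate 4 (exact permutation p = 0.2). Leaving out any 1 of the 6 libraries kept the call of *Axin2*, with log2 differences from -1.53 to -0.97.

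The ligands come from endothelial cells. *Wnt2* (ENSMUSG00000010797, GRCm39 chr6:17988939-18030584, minus strand) is a ligand of sinusoidal and central vein endothelium, and was at 1.52, 1.24 and 2.11 CPM in KPF and 4.49, 2.6 and 1.99 CPM in WPF. KPF replicate 3 stood slightly above WPF replicate 4, and the mean of KPF was the lower one, 1.63 ± 0.446 against 3.03 ± 1.3 CPM (SD, n = 3). The log2 difference of -0.89 (SE 0.45, 95% interval -1.93 to 0.16) did not pass either rule, with 0.0854 as unadjusted p and 0.511 as adjusted p by edgeR, Benjamini-Hochberg (exact permutation p = 0.2). It rests on 14 to 22 reads a library in KPF and 34 to 52 in WPF. On the deposited FPKM scale, which divides by library totals, the values were 0.66, 0.55 and 0.84 in KPF and 1.78, 1.25 and 1.04 in WPF and did not overlap, as was so for 12.2% of all tested genes with KPF lower. Without WPF replicate 4, the log2 difference was -1.13 and passed the looser rule, and without WPF replicate 2 it was -0.50.

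Markers of the endothelial cells that make *Wnt2* overlapped between the groups in their summed level. The 18 sinusoidal endothelial markers summed to between 337 and 475 CPM in KPF and between 315 and 409 CPM in WPF, with a median log2 difference of 0.07. Of these, 1 was called higher (*Pecam1*) and 0 lower, beside 5.83% and 3.98% of all tested genes. Per 100 reads of these markers, *Wnt2* had 0.321, 0.311 and 0.627 reads in KPF and 1.43, 0.636 and 0.554 in WPF (chosen after the values were seen, exact permutation p = 0.2), so that the groups overlapped here as well.

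*Rspo3* (ENSMUSG00000019880, GRCm39 chr10:29328412-29411863, minus strand), the R-spondin of central vein endothelium that keeps Wnt receptors on the cell surface, was at 3.24, 1.15 and 2.98 CPM in KPF and 2.51, 3.02 and 2.64 CPM in WPF. The 3 WPF livers were close to each other, and of the KPF livers replicate 1 lay above them, replicate 3 within their range and replicate 2 below, at 13 reads. The log2 difference was -0.15 (SE 0.45, 95% interval -1.19 to 0.89, exact permutation p = 0.9), and it was 0.19 without KPF replicate 2. Markers of central vein endothelium, a list of 7 that holds *Wnt9b*, summed to 20.6 to 48.6 CPM in KPF and 18.6 to 24.8 CPM in WPF, and 2 of them reached the level for the test. *Fabp4*, a fatty acid carrier of endothelium and also of fat cells, was the 1 called higher, with a log2 difference of 1.69 (SE 0.58). It lost the call without KPF replicate 1 (1.43), KPF replicate 2 (1.38), WPF replicate 3 (1.66) or WPF replicate 4 (1.41). *Fabp4* alone held 34.7, 36.1 and 7.69 CPM in KPF, within list sums of 45.6, 48.6 and 20.6 CPM. In WPF it held 11.8, 7.87 and 4.86 CPM, within sums of 24.8, 23.9 and 18.6 CPM. Without *Fabp4*, a cut chosen after the values were seen, the rest of the list was lower in each KPF liver than in each WPF liver. KPF replicate 3 and WPF replicate 2 were close there. That rest includes *Wnt2* and *Rspo3* themselves, so it is no separate measure of these cells. Its other genes, all below the level for the test, went both ways. *Thbd* (0.54) and *Cdh13* (1.38) had log2 differences above 0, and *Wnt9b* (-0.49) and *Kit* (-0.66) below.

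*Lgr5* and *Rnf43* act on opposite sides of the receptor. *Lgr5* (ENSMUSG00000020140, GRCm39 chr10:115286216-115423685, minus strand), an R-spondin receptor and β-catenin target, was at 3.72, 12.8 and 5.09 CPM in KPF and 4.49, 6.96 and 5.5 CPM in WPF. KPF replicate 2 was the highest of the 6 and KPF replicate 1 the lowest. Its log2 difference was 0.35 (SE 0.48, 95% interval -0.76 to 1.47, exact permutation p = 0.9), and it was -0.37 without KPF replicate 2.

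*Rnf43* (ENSMUSG00000034177, GRCm39 chr11:87553548-87626365, plus strand) codes for the ubiquitin ligase that removes Wnt receptors from the membrane and is held back by R-spondin. It stood at 23.1, 24.1 and 16.8 CPM in KPF and 17.2, 26.8 and 42.5 CPM in WPF. WPF replicate 4 was the highest library, and the other 5 shared the range from 16.8 to 26.8 CPM. KPF differed from WPF by -0.43 on the log2 scale (SE 0.34, 95% interval -1.22 to 0.35), with an adjusted p of 0.664 by edgeR, Benjamini-Hochberg. Without WPF replicate 4 the difference was -0.05.

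*Tbx3* (ENSMUSG00000018604, GRCm39 chr5:119808734-119822789, plus strand) codes for a T-box repressor that is a β-catenin target in liver. Its levels were 101, 69.6 and 101 CPM in KPF and 69.1, 93.4 and 113 CPM in WPF, with means of 90.6 ± 18.2 and 91.9 ± 22.1 CPM (SD, n = 3). The groups covered the same range, and the log2 difference of -0.02 had a 95% interval from -0.66 to 0.62. *Tbx3* shares 840 bases of its span with the antisense gene *Tbx3os1*, which had between 1011 and 1954 reads in KPF and between 216 and 1230 in WPF. Whether the counting used the strand is not given in the sources used here, so reads of the 2 genes may not be fully separate.

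*Glul* codes for glutamine synthetase, which captures the ammonium left at the end of the sinusoid and in normal liver is found in the hepatocytes next to the central vein. *Glul* (ENSMUSG00000026473, GRCm39 chr1:153775690-153785469, plus strand) was at 767, 530 and 456 CPM in KPF and 627, 707 and 645 CPM in WPF. The WPF livers were within a narrow range, and the KPF livers lay above it (replicate 1) and below it (replicates 2 and 3). KPF minus WPF was -0.17 on the log2 scale (SE 0.28, 95% interval -0.83 to 0.48) with an adjusted p of 0.83 by edgeR, Benjamini-Hochberg. The SD over 3 libraries was 162 CPM in KPF and 41.9 CPM in WPF.

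*Oat* codes for ornithine aminotransferase, which turns ornithine into a precursor of glutamate. *Oat* (ENSMUSG00000030934, GRCm39 chr7:132159207-132178127, minus strand) was at 88.6, 214 and 168 CPM in KPF and 77.6, 85.8 and 110 CPM in WPF. KPF replicates 2 and 3 stood above all WPF livers, while KPF replicate 1 lay within the WPF range. The span that the table gives for *Fgfr2*, which had up to 1095 reads in a library, also covers *Oat* on the same strand. The log2 difference was 0.79 (SE 0.35, 95% interval -0.03 to 1.61), with 0.0581 as unadjusted p and 0.466 as adjusted p by edgeR, Benjamini-Hochberg, so that neither rule was passed. Without KPF replicate 1 it was 1.07 and passed the looser rule, and without KPF replicate 2 it was 0.49. Per 100 reads of *Glul*, its neighbor in the same cells, *Oat* had 11.5, 40.4 and 36.9 reads in KPF and 12.4, 12.1 and 17.0 in WPF (chosen after the values were seen, exact permutation p = 0.4), and the same KPF livers, replicates 2 and 3, stood above the rest.

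*Slc1a2* (ENSMUSG00000005089, GRCm39 chr2:102489004-102621129, plus strand) codes for the glutamate transporter GLT-1, which brings glutamate to the cells that make glutamine. It stood at 136, 206 and 170 CPM in KPF and 84.2, 94.8 and 261 CPM in WPF. WPF held the lowest values and also the highest one, in replicate 4. The log2 difference was 0.22 (SE 0.46, 95% interval -0.84 to 1.28, exact permutation p = 0.8). WPF replicate 4 decided it, since without that library the difference was 0.92 and passed the looser rule, while it was -0.06 without WPF replicate 2 and -0.02 without WPF replicate 3.

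*Rhbg* (ENSMUSG00000104445, GRCm39 chr3:88150181-88162016, minus strand), an ammonium transporter of pericentral hepatocytes, was at 3.91, 4.33 and 2.4 CPM in KPF and 5.1, 3.3 and 2.11 CPM in WPF. With 25 to 59 reads a library, the groups covered the same range, and the log2 difference was 0.03 (SE 0.43, 95% interval -0.97 to 1.03). The 4 transport and enzyme genes thus had log2 differences between -0.17 and 0.79 and none passed either rule, with intervals wide enough to hold a 1.5-fold change in at least 1 direction.

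**Figure D2:**
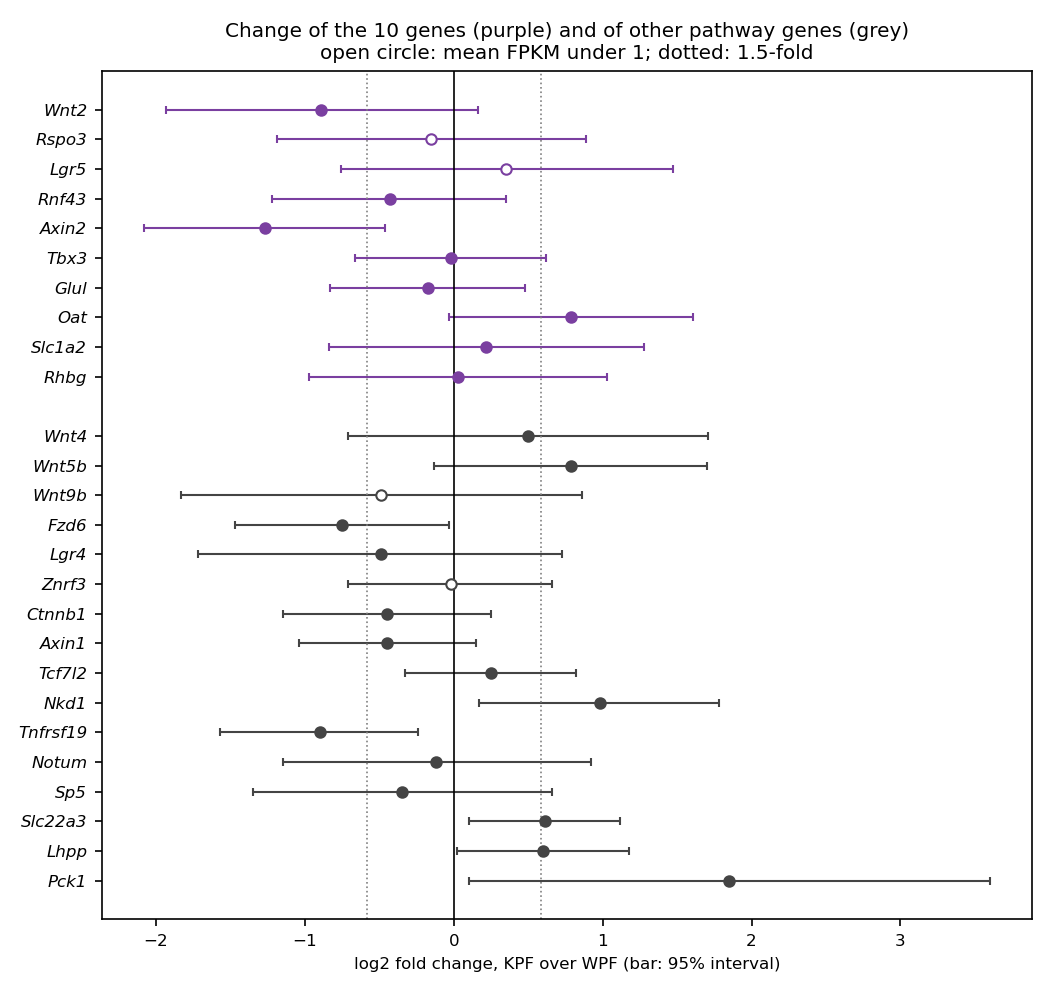
Log2 fold change of KPF over WPF (horizontal axis) with its 95% interval for the 10 genes (purple) and for other genes of the pathway and of zonation (grey); open circles are genes with a mean FPKM under 1, and dotted lines mark 1.5-fold. Of the 10, *Axin2* alone has an interval that leaves out 0, from -2.08 to -0.46.

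The 10 genes differed far more from each other than between the groups. Per length and library, the mean FPKM over the 6 libraries was 166 for *Glul*, 52.4 for *Oat*, 12.4 for *Slc1a2*, 3.97 for *Rnf43*, 1.8 for *Rhbg*, 1.77 for *Axin2*, 1.02 for *Wnt2*, 0.842 for *Rspo3* and 0.635 for *Lgr5*. *Tbx3*, between *Oat* and *Slc1a2* in this order, ranged from 9.3 to 20.13 FPKM. *Glul* lay above *Oat*, and *Oat* above *Tbx3*, without overlap of their 6 libraries. From *Tbx3* downward, each gene overlapped its neighbor in the order, although *Slc1a2* was above *Rnf43* in 6 of 6 libraries. The FPKM of *Rhbg* was above that of *Axin2* in 4 of 6 libraries, and that of *Tbx3* above *Slc1a2* in 4 of 6, so the order of these pairs is not set by the data.

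The genes peaked in different livers. *Tbx3*, *Slc1a2* and *Rnf43* were highest in WPF replicate 4, *Glul* and *Rspo3* in KPF replicate 1, *Oat* and *Lgr5* in KPF replicate 2, *Rhbg* and *Wnt2* in WPF replicate 2 and *Axin2* in WPF replicate 3. KPF replicate 3 was highest for 0 of the 10 genes and WPF replicate 3 lowest for 0. WPF replicate 2 was the lowest library for *Oat*, *Tbx3* and *Slc1a2*, and KPF replicate 1 for *Axin2* and *Lgr5*. Over the 6 libraries, the highest CPM was 4.83-fold the lowest for *Axin2*, 3.63-fold for *Wnt2*, 3.45-fold for *Lgr5* and 3.1-fold for *Slc1a2*. It was between 2.42-fold and 2.82-fold for *Rspo3*, *Oat*, *Rnf43* and *Rhbg*, and 1.68-fold for *Glul* and 1.64-fold for *Tbx3*.

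**Figure D3:**
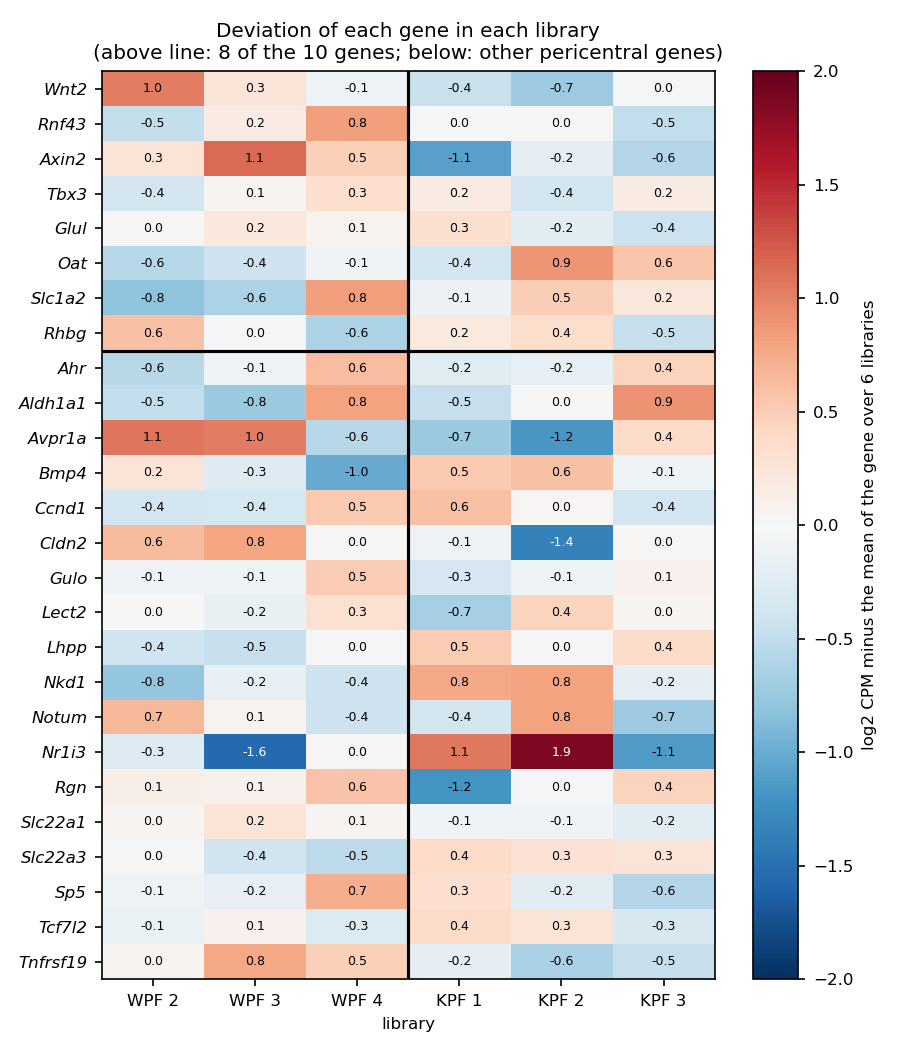
Deviation of log2 CPM in each library (columns) from the mean of the gene over the 6 libraries (color and printed value) for the 8 tested genes (above the line) and the other tested pericentral genes (below it). No library has one color down its column, and in the *Axin2* row the 3 WPF libraries are positive and the 3 KPF libraries negative.

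The likeness of patterns was measured as the root mean square (RMS) difference of mean-centered log2 CPM over the 6 libraries. It is given for tested members that were called or that spanned over 2-fold. Nearest to *Axin2* among all tested genes were *Tbcel* (RMS 0.19), *Zcchc14* (0.20) and *Bhlhe40* (0.27), and nearest among the members was *Wnt2* (0.67). *Cby1* followed *Oat* most closely (0.09), then *Amotl2* (0.16) and a gene without a matched symbol, ENSMUSG00000120675 (0.16). For *Slc1a2* they were *Gsta3* (0.15), *Gm44949* (0.16) and *Fcgr4* (0.16), and for *Rnf43* *Adcy6* (0.14), *Ifi207* (0.14) and *Ifi27* (0.17). The nearest genes to *Rhbg* were *Ankrd13b* (0.11), *Mrpl15* (0.13) and *Tnfrsf4* (0.13), and to *Wnt2* they were *Rab9* (0.15), *Hdac5* (0.17) and *Dimt1* (0.17). For none of these 6 members was the nearest gene another member, and the nearest member was between 0.39 and 0.67 away. These distances describe 6 libraries, searched over 10866 genes.

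The rest of the Wnt pathway was read from lists by role, written from general knowledge. Of 34 ligands, R-spondins, antagonists and genes of Wnt secretion (such as *Porcn*, which acylates Wnt proteins), 4 reached the level for the test and 7 had 0 reads in all 6 libraries, and 0 of the 4 were called. *Wnt9b*, the other central vein ligand, had 10, 9 and 31 reads in KPF and 34, 26 and 32 in WPF, with a log2 difference of -0.49 (SE 0.58). By reads, KPF replicate 3 lay within the WPF range, and by CPM, at 2.98, just above the highest WPF library, replicate 2 at 2.94. Without KPF replicate 3 the difference was -1.33 and past the looser thresholds, while it was -0.17 without KPF replicate 2. Of 20 receptor genes, 8 were tested, with a median log2 difference of -0.12. Of these, 1 was called lower and 0 higher, beside 3.98% and 5.83% of all tested genes.

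The receptor called was *Fzd6*, a Frizzled, at 2.76, 4.07 and 5 CPM in KPF and 7.09, 6.18 and 6.68 CPM in WPF. The groups did not overlap, as was so for 8.15% of all tested genes with KPF lower. Its log2 difference was -0.75 (SE 0.31, unadjusted p 0.0424, adjusted p 0.453 by edgeR, Benjamini-Hochberg). The call was lost without any 1 of KPF replicates 1 and 2 and WPF replicates 2, 3 and 4, where the log2 difference lay between -0.80 and -0.55. *Lgr4*, the R-spondin receptor of hepatocytes at large, stood at 23.4, 22.0 and 63.4 CPM in KPF and 26.9, 45.1 and 80.9 CPM in WPF (log2 difference -0.49, SE 0.53). It was -1.17 and past the looser rule without KPF replicate 3, and near 0 without WPF replicate 4. *Znrf3*, the partner ligase of *Rnf43*, had a log2 difference of -0.02 (SE 0.29) at a mean FPKM of 0.923.

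Inside the cell, 29 of 33 listed genes were tested, 0 were called, and the log2 differences had a median of -0.08 with 14 above 0 and 15 below. *Ctnnb1*, which codes for β-catenin, was at 18.7, 13.9 and 23.2 CPM in KPF and 25.9, 17.1 and 33.0 CPM in WPF, and the groups overlapped. Its log2 difference was -0.45 (SE 0.30, adjusted p = 0.607 by edgeR, Benjamini-Hochberg). *Tcf7l2*, the TCF factor most used in hepatocytes, had a log2 difference of 0.25 (SE 0.25). Neither β-catenin mRNA nor that of its partner passed a rule. These are mRNA levels, and the protein of β-catenin was not measured here.

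Other pericentral genes outside the P450 family moved in both directions. Of 19 listed, 18 were tested (*Tcf7l2* and *Notum* among them, which stand in another list too), and the median log2 difference was -0.04. By the looser rule 3 were called higher and 1 lower, beside 5.83% and 3.98% of all tested genes. Groups did not overlap in 7.55% of all tested genes with KPF higher and in 8.15% with KPF lower. *Tnfrsf19* (TROY), a receptor that is a Wnt target in stem cells, was at 6.67, 4.78 and 5.48 CPM in KPF and 7.86, 13.2 and 10.6 CPM in WPF. It fell without overlap by 0.90 on the log2 scale (SE 0.29, unadjusted p 0.0146, adjusted p 0.43 by edgeR, Benjamini-Hochberg), and without WPF replicate 3 the difference was -0.71 and the call was lost.

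*Nkd1*, like *Axin2* a β-catenin target that restrains the pathway, was called in the other direction. It stood at 11.8, 12.3 and 6.05 CPM in KPF and 3.97, 6.18 and 5.15 CPM in WPF, with KPF replicate 3 inside the WPF range. The log2 difference was 0.98 (SE 0.35, unadjusted p 0.0241, adjusted p 0.43 by edgeR, Benjamini-Hochberg). The call was lost without KPF replicate 1 (0.85), KPF replicate 2 (0.80), WPF replicate 2 (0.82) or WPF replicate 4 (0.97).

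The other called pericentral genes were *Slc22a3*, an organic cation transporter, and *Lhpp*, a phosphatase. *Slc22a3* was at 17.1, 16.1 and 15.9 CPM in KPF and 13.1, 9.98 and 9.08 CPM in WPF, a log2 difference of 0.61 (SE 0.22). *Lhpp* was at 162, 114 and 147 CPM in KPF and 86.2, 82.8 and 111 CPM in WPF, a log2 difference of 0.60 (SE 0.25). Both were higher in KPF without overlap, as were 7.55% of all tested genes, with adjusted p of 0.43 and 0.456 by edgeR, Benjamini-Hochberg. *Slc22a3* lost the call without KPF replicate 1 (0.58), WPF replicate 3 (0.56) or WPF replicate 4 (0.49), and *Lhpp* without KPF replicate 1 (0.49), KPF replicate 3 (0.56), WPF replicate 2 (0.54) or WPF replicate 3 (0.51).

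On the portal side, all 20 listed genes were tested, and the median log2 difference was -0.02 with 10 on each side of 0. By the looser rule 1 was called higher and 0 lower, beside 5.83% and 3.98% of all tested genes. The gene called was *Pck1*, which codes for the enzyme that opens gluconeogenesis, at 266, 1720 and 322 CPM in KPF and 198, 129 and 314 CPM in WPF. KPF replicate 2 stood far above the other 5 libraries. Its log2 difference of 1.85 (SE 0.75) was 0.46 without KPF replicate 2, 1.79 without WPF replicate 2 and 1.59 without WPF replicate 3, and the call was lost in each case.

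Markers of other cells were called in 3 lists, those of sinusoidal and central vein endothelium with 1 gene each (*Pecam1* and *Fabp4*) and those of stellate cells. Of 18 stellate cell and fibroblast genes, 13 were tested, with a median log2 difference of 0.80. Of these, 5 were called higher in KPF (*Col3a1*, *Col1a1*, *Col1a2*, *Des* and *Reln*) and 0 lower, beside 5.83% and 3.98% of all tested genes. Their summed level was 361 to 974 CPM in KPF and 316 to 344 CPM in WPF, and KPF replicate 3, at 361 CPM, was close to the WPF livers. In KPF replicate 2, *Des* alone made up 486 of the 974 CPM, and without *Des* the sums were 807, 488 and 351 CPM in KPF and 328, 335 and 308 CPM in WPF. *Axin2* was at 3.81, 7.25 and 5.48 CPM in KPF replicates 1, 2 and 3, each below all 3 WPF livers. *Reln* lost its call without KPF replicate 1 (0.45), WPF replicate 2 (0.65) or WPF replicate 4 (0.70), and the part of these cells in the values of the 10 genes was not tested. Kupffer cell markers summed to 232 to 298 CPM in KPF and 212 to 412 CPM in WPF, bile duct markers to 68.6 to 84.5 and 63.9 to 91.5 CPM, and blood cell markers to 115 to 520 and 52.2 to 338 CPM, with 0 genes called in these 3 lists. Of the blood cell markers, 6 of 6 tested genes had a log2 difference above 0, with a median of 0.71.

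**Figure D4:**
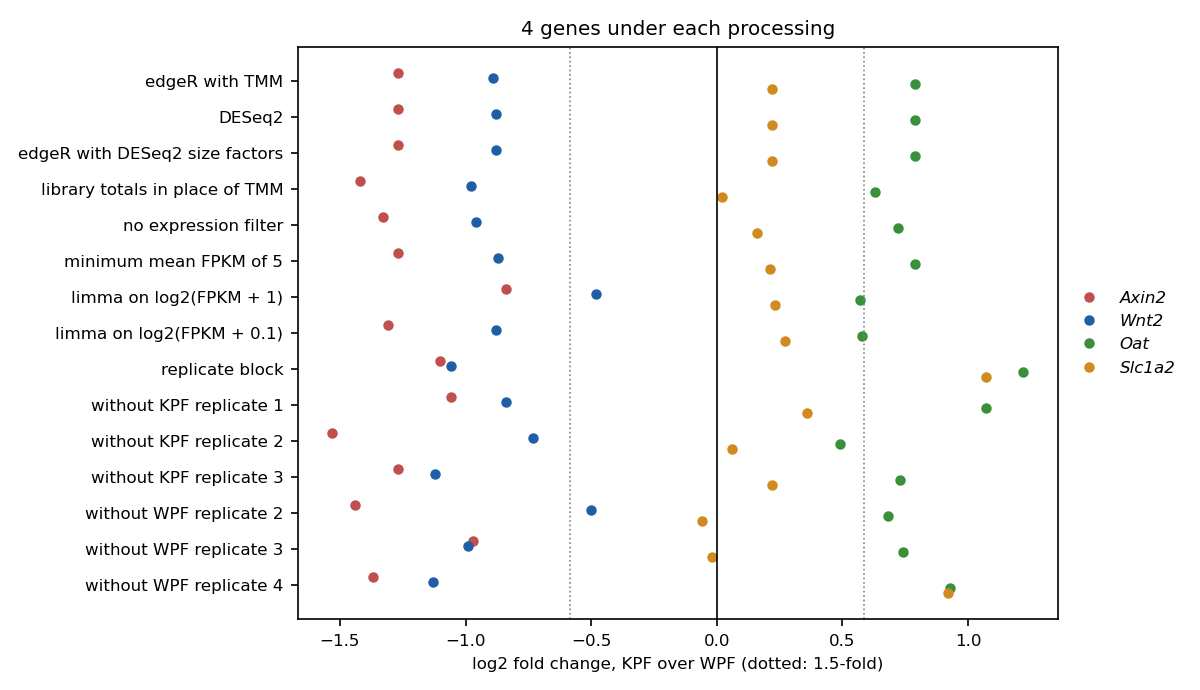
Log2 fold change of KPF over WPF (horizontal axis) of *Axin2*, *Wnt2*, *Oat* and *Slc1a2* under the test used (top) and under 14 alternatives of tool, scaling, filter, block and left-out library; dotted lines mark 1.5-fold. *Axin2* stays between -1.53 and -0.84, whereas *Slc1a2* runs from -0.06 to 1.07. Values of *Axin2* and *Wnt2* under a minimum of 5 FPKM are fitted beside that test, as both genes lie below it.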

How the data were processed

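Liver RNA of 3 KPF and 3 WPF dams was sequenced from poly(A)-selected, randomly primed, paired-end libraries. The authors deposited raw read counts and FPKM values for 56691 genes. The submitters' processing notes name cutadapt 1.9.1, HISAT2 2.2.1, HTSeq 0.6.1, DESeq2 and the build GRCm39, and the strand setting is not given in the sources used here. The deposited FPKM equal counts divided by exonic length and by library total, to within 0.005. Symbols were matched by gene ID for 52073 genes, and 4618 IDs had no match.

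The 10 genes and the lists were chosen with earlier results of these data known. Counts were tested with edgeR 4.0.16 (R 4.3.3, TMM scaling, quasi-likelihood test) over the 10866 genes that averaged 1 FPKM or more, with Benjamini-Hochberg adjustment, and genes below that minimum were fitted with them and have no adjusted p. The script was tested on simulated data. Calls used an adjusted p under 0.05, or an unadjusted p under 0.05 with at least 1.5-fold. Exact permutation tests on CPM were two-sided. Named genes were the 10, list genes called by the looser rule, *Ctnnb1*, *Wnt9b*, *Znrf3*, *Lgr4*, *Tcf7l2* and the 3 nearest genes in pattern. Alternatives were DESeq2 1.42.0 and its size factors, library totals, other filters, limma 3.58.1 on log2(FPKM + 1) and log2(FPKM + 0.1), a replicate block and each library left out. Depth limits the genes with few reads. Coordinates of genes are on GRCm39, and those of promoter windows on GRCm38.p6 from RefSeq. They were not combined.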

Additional observations from a re-analysis of the deposited data

How the results depend on the processing

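*Axin2* passed the looser rule under all 14 alternatives (log2 difference -1.53 to -0.84, unadjusted p 0.000836 to 0.0458, adjusted p 0.0657 to 0.82), although a minimum of 5 FPKM takes it out of the tested genes. *Glul* and *Rnf43* kept their sign and remained uncalled under all 14, but their size moved with 1 library, for *Glul* to -0.42 without KPF replicate 1 and -0.03 without KPF replicate 3, and for *Rnf43* to -0.70 without WPF replicate 2 and -0.05 without WPF replicate 4. For the results below that moved, the cause was not tested, except where fewer or more genes were tested by construction.

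An adjusted p under 0.05 was reached by 156 genes with DESeq2, by 286 without a filter and by 0 to 5 with 1 library left out (5 without WPF replicate 4). By the looser rule, 371 genes were higher and 729 lower with library totals, 1576 and 910 without a filter, 255 and 205 at a minimum of 5 FPKM, 237 and 540 with limma on log2(FPKM + 1), and 288 and 700 on log2(FPKM + 0.1). With 1 library left out, 331 to 922 were higher and 245 to 712 lower, the fewest without WPF replicate 3. Higher genes were 59.4% of those called with TMM, 33.7% of those with totals and, by limma, 30.5% on log2(FPKM + 1) and 29.1% on log2(FPKM + 0.1), and library totals moved the median of all genes from 0.02 to -0.12.

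Of the 10 genes, 2 were called with DESeq2, with library totals or without a filter, 0 at a minimum of 5 FPKM and 1 to 3 with 1 library left out (2 without KPF replicate 1, 3 without WPF replicate 4). *Oat* was called with DESeq2 (0.79) and without a filter (0.72), and was between 0.49 and 1.07 with 1 library left out. *Wnt2* was called with library totals (-0.98) and lay between -1.13 and -0.50 with 1 library left out. *Rhbg* had the opposite sign with library totals (-0.04), without a filter (-0.04) and with limma (-0.03 on log2(FPKM + 1), -0.05 on log2(FPKM + 0.1)). Leaving out 1 library gave -0.25 to 0.39 for *Rhbg*, -0.19 to 0.15 for *Tbx3*, -0.37 to 0.67 for *Lgr5*, -0.40 to 0.19 for *Rspo3* and -0.06 to 0.92 for *Slc1a2*.

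Replicate numbers 2 and 3 occur in both groups but stand for different dams, and no pairing is given in the sources used here. Deviations of same-numbered libraries correlated at 0.0589 and -0.0368. These 2 correlations cannot settle whether same-numbered libraries shared a batch. With the replicate block, which uses 4 libraries in pairs, 3 of the 10 genes were called, *Oat* stood at 1.22, *Slc1a2* at 1.07, *Tbx3* at 0.06, *Rhbg* at -0.34 and *Axin2* at -1.10. The genes with 13 to 59 reads a library, *Wnt2*, *Rhbg* and *Rspo3*, are limited by depth.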

Other observations

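*Rspo1*, an R-spondin that acts on the same receptors as *Rspo3*, lay below the minimum FPKM and has no adjusted p in the test used. Without a filter, where 286 genes had an adjusted p under 0.05, its adjusted p was 0.0487 by edgeR, Benjamini-Hochberg. *Rspo1* was named after its values were seen. Its reads were 19, 37 and 11 in KPF replicates 1, 2 and 3 and 3, 5 and 2 in WPF replicates 2, 3 and 4, which is 1.81, 3.27 and 1.06 CPM against 0.259, 0.351 and 0.117 CPM. The groups did not overlap, and the log2 difference was 3.06 (SE 0.66, unadjusted p = 0.00191 by edgeR's quasi-likelihood test), past the looser thresholds under all 14 alternatives. KPF replicate 2 had the most reads of *Rspo1*. The summed level of stellate cell and fibroblast markers was also highest there, at 974 CPM, of which *Des* made up 486 CPM, and without *Des* it was 807, 488 and 351 CPM in KPF and 328, 335 and 308 CPM in WPF, highest in KPF replicate 1. The part of those cells in the *Rspo1* values was not tested.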
